A study of Mus musculus with 14 samples.

Results

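Glucagon (Gcg), the prohormone convertases Pcsk1 and Pcsk2, and the alpha-cell effectors Ttr and Slc38a5 were examined for genomic occupancy of NKX2.2, a homeodomain transcription factor, in cultures with and without knockdown of Klf4, a zinc-finger transcription factor. A listed region was taken as a site of one of these 5 genes when that gene was the nearest protein-coding gene, with distance 0 for an overlap. By this rule 10 of the 6758 regions in the authors' deposited table belonged to the 5 genes: 1 to Gcg, 2 to Pcsk1, 4 to Pcsk2, 2 to Ttr and 1 to Slc38a5. The rule reads positions alone, while the genes it starts from were picked with earlier results of these data known. The material was alphaTC6, a mouse line of pancreatic alpha cells labelled WT in every sample. All cultures were reverse-transfected for 48 h with Lipofectamine RNAiMAX and either a scrambled siRNA or an siRNA against Klf4. NKX2.2 chromatin immunoprecipitation and sequencing (ChIP-seq) gave 4 scramble and 3 knockdown samples, and 4 and 3 input samples accompanied them. All cultures are of 1 established line, which limits them as a model of alpha cells in an islet, and the knockdown itself and the cells' markers were not checked here, since no expression values were used.

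Alpha cells make proglucagon from Gcg and cut it into active hormones inside secretory granules. PC2, encoded by Pcsk2, releases glucagon, whereas PC1/3, encoded by Pcsk1, releases GLP-1 and is better known from intestinal L cells and beta cells. Ttr encodes transthyretin, a carrier of thyroxine and of retinol-binding protein that alpha cells also produce. Slc38a5 encodes a sodium-coupled transporter of neutral amino acids such as glutamine, known from alpha cells that expand when glucagon signalling is blocked. NKX2.2 binds DNA through a core of the letters AAGTG, and KLF4 binds GC-rich elements with the core GGGTG, which reads CACCC on the other strand.

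Transcription starts were those of protein-coding genes in the RefSeq promoter table, which holds none for Ttr. Of the 10 sites, only the Gcg site covered such a start. It ran over 660 bp on chromosome 2 from 62483551 to 62484210 (mm10). Gcg occupies 62474530 to 62483653 on the minus strand, so the site reached 557 bp upstream of the start and took in 103 bp from the start onwards. It therefore lay across the gene's 5′ end and the proximal promoter. The 250 bases before the start, chr2:62483654-62483903 on the minus strand of GRCm38.p6 (RefSeq), lay wholly inside the site. They are shown because they are part of the sequence under the region. The rest of the 660 bp was not searched for motif letters. Capitals mark the letters AAGTG or GGGTG on either strand.
Gcg: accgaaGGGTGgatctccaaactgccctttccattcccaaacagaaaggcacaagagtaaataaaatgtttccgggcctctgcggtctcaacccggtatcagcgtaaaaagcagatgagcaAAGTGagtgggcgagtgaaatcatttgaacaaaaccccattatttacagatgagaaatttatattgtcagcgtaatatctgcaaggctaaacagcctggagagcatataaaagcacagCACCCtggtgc

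In this promoter the letters AAGTG occurred at 1 place, from -129 to -125 with the base before the start as -1. GGGTG occurred at 2 places, from -244 to -240 and, on the opposite strand, from -11 to -7. Neither of the longer forms searched, TNAAGTG for NKX2.2 and GGGNGTGG for KLF4, was found there, and neither was the FOXA letters TGTTTAC. The short cores are common. Over 21263 such 250-base upstream windows of protein-coding genes, AAGTG was present on either strand in 39.7%, GGGTG in 54.2%, TNAAGTG in 9.40%, GGGNGTGG in 17.7% and TGTTTAC in 2.62%. Among the 1513 windows whose promoter overlapped a listed region, AAGTG was present in 43.0% and TNAAGTG in 8.20%. Every TNAAGTG match also holds an AAGTG match, so these counts overlap. A match is a description of letters and not of binding.

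The promoters of Pcsk1, Pcsk2 and Slc38a5 were in the RefSeq promoter table but had no listed region on them, and 4 of the 5 genes were matched in it. Their core matches are shown with up to 8 flanking bases a side for comparison with the Gcg promoter.
Gcg AAGTG, -129 to -125: gatgagcaAAGTGagtgggcg
Pcsk1 AAGTG, -129 to -125, opposite strand: attttagtCACTTctccaccc
Pcsk1 GGGTG, -121 to -117, opposite strand: cacttctcCACCCcgccggga
Pcsk2 GGGTG, -243 to -239: cggcagtGGGTGgcagcggg
Pcsk2 GGGTG, -31 to -27, opposite strand: gcgcgcgtCACCCgggctggc
Slc38a5 GGGTG, -49 to -45: cctaggagGGGTGgggcagac
Pcsk1 carried AAGTG at the same offset from the start as Gcg. This offset depends on the start in the promoter table, 75089857, which lies inside the outer bounds of Pcsk1. Its window held also the only TGTTTAC match of the 4 promoters, from -44 to -38 on the opposite strand. The 250 bases upstream of Pcsk2 and Slc38a5 held no AAGTG on either strand. Base composition differed widely, with a GC content of 44.8% in the Gcg window, 46.8% in Pcsk1, 55.2% in Slc38a5 and 82.4% in Pcsk2.

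The comparison asked whether NKX2.2 occupancy at these genes differed between Klf4-knockdown and scramble cultures. At a false discovery rate (FDR, the Benjamini-Hochberg adjusted p-value over all regions) of 0.05, 0 of the 10 sites passed in the authors' deposited csaw comparison, beside 1.36% of all 6758 regions. The smallest FDR among the 10 was 0.238. Unadjusted p-values under 0.05 were listed for 2 of the 10 sites, at Pcsk1 and Pcsk2, against 11.2% of all regions. A share of 2 in 10 cannot be set apart from that background with so few sites. With the table's best-window p-value, 0 of the 10 passed an FDR of 0.05, beside 1.2% of all regions, and 1 had an unadjusted value under 0.05. The table holds no values per sample, so the depth of the libraries and the spread between cultures are unknown, and a site that missed the threshold is not shown to be equally occupied. Neither its header nor the labels name the numerator of the fold change. Positive and negative log2 fold changes are therefore given as listed and are not read as gain or loss upon knockdown.

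**Figure D1:**
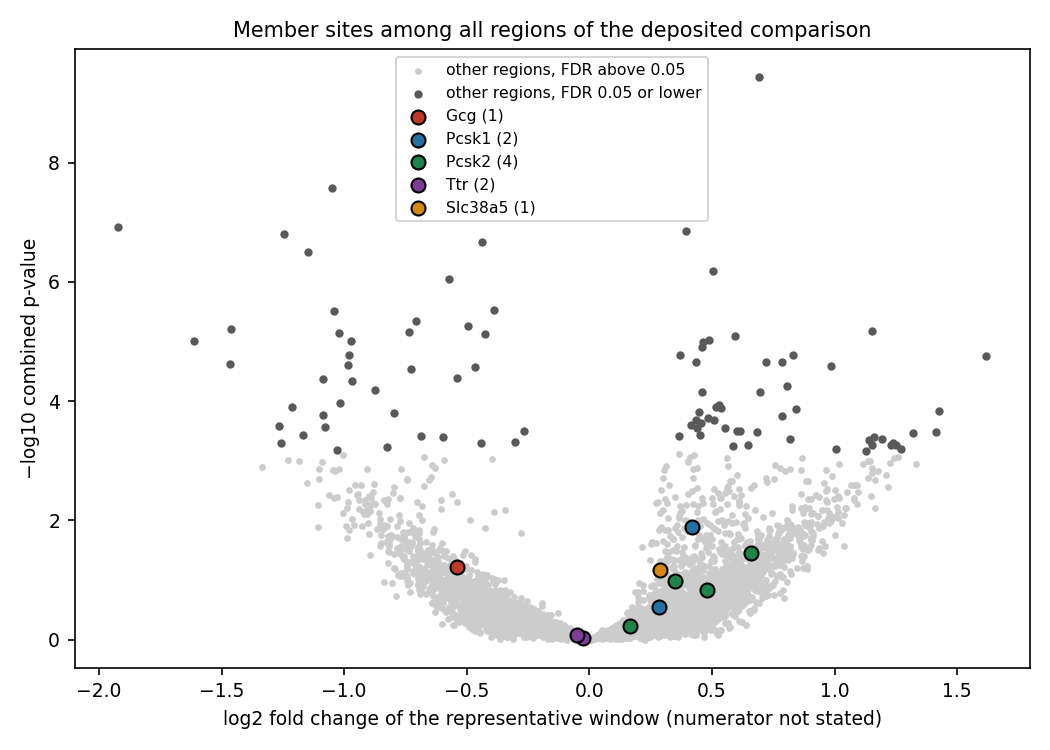
Log2 fold change of the representative window (x axis) against −log10 of the combined p-value (y axis) for all 6758 regions, with the 10 sites of the 5 genes in colour and other regions at an FDR of 0.05 or lower in dark grey. All coloured points lie below the dark grey ones, Gcg on the negative side and the Pcsk1, Pcsk2 and Slc38a5 sites on the positive side.

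The hormone gene carried the most negative value of the group. The authors' deposited table lists a log2 fold change of -0.54 for the Gcg site, a fold of 0.687, at p = 0.0615 (FDR 0.490). It was listed as down, though none of its 12 windows was counted as up or down. Values of at least this size in either direction were listed for 1185 regions (17.5% of the table), of which 63, or 5.32%, passed an FDR of 0.05. The site was also the most extended of the 10. Its 12 windows put it in the top 1.17% of all regions by number of windows, and its width in the top 3.31%.

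The lead window of the Gcg site could be placed from the table. Windows are 10 bp long on a 50 bp grid and are numbered consecutively through the table, so the number of the representative window gives its order within its region. At Gcg it was window 5 of 12. Since the site has 14 grid positions and 12 windows, its midpoint lay at one of 3 grid positions from -102.5 to -202.5 bp from the start. The AAGTG match at -129 to -125 lies between these 10 bp windows and in none of them. The windows are units of counting and not a resolution of binding. Their positions therefore place no binding on or off the match. The best window of the site was the same window, and the combined and best-window p-values in the deposited table were equal. Both also held for the upstream Pcsk1 site, and equal p-values were listed for 2164 of the 6758 regions. That number takes in single-window regions, where both p-values rest on the same window. Regions of 2 or more windows numbered 5953.

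Sites over a transcription start formed a class of 581 regions in the table, and Gcg was compared with it. In the authors' deposited table their log2 fold changes had a median of -0.06, with 346 negative and 235 positive values, whereas the median over all regions was 0.04. The Gcg value was towards the low end, and 70 of the 581, itself included, were as low or lower. By extent it stood further out, since 5 of the 581 (0.861%) had 12 windows or more, Gcg included, against a median of 4. Of those 5 sites, 4 had negative values and 1 passed an FDR of 0.05. In the whole class 4 sites passed. The negative sign at Gcg is thus shared by most sites over gene starts, and its part in the Gcg value was not tested.

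**Figure D2:**
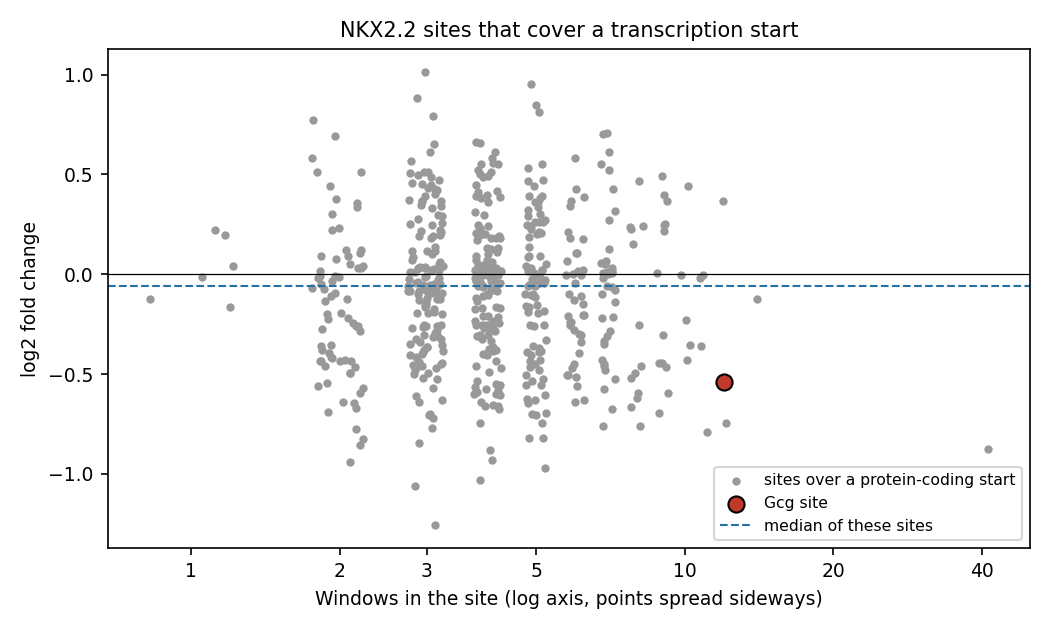
Number of windows (x axis, log scale) against log2 fold change (y axis) for the 581 regions that cover a protein-coding transcription start, each grey point 1 region, with the Gcg site in red at 12 windows and -0.54. The dashed line is the median of the class, -0.06, and points are spread sideways to separate them.

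Pcsk2, which encodes the convertase that makes glucagon, had 4 sites, a number reached by 4.87% of the 4542 protein-coding genes with any site. That share was not adjusted for gene length or for the gap to the next protein-coding gene, here 464 kb on the upstream side. A single site lay inside the gene, which spans 270 kb on chromosome 2 from 143546133 to 143816284. It was 60 bp wide with 2 windows, from 143666951 to 143667010, about 121 kb past the start, and the authors' deposited table gives it 0.17 on the log2 scale (p = 0.594). The gene's start itself carried no listed region. The other 3 sites formed a group upstream, at 146, 126 and 121 kb from the gene, within a span of 25.5 kb. Groups as tight as this held 9.19% of all regions on assembled chromosomes.

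In that upstream group all 3 log2 fold changes of the authors' deposited table were positive. The outermost site, 143399701 to 143399910 with 5 windows, had 0.35 (the authors' p = 0.105, FDR 0.604). The middle site, 143419951 to 143420060 with 3 windows, had 0.66, a fold of 1.58, with the authors' p = 0.0352 and FDR 0.382. This was the highest value of the 10 sites, with 2 of 3 windows counted as up. The innermost site, 143424901 to 143425160 with 6 windows, had 0.48 (the authors' p = 0.146, FDR 0.659). Regions with an absolute value at least as large as that of the middle site numbered 615, and 8.94% of them passed an FDR of 0.05. No protein-coding gene other than Pcsk2 lay nearer than Otor, 318 to 343 kb away on the other side. A long non-coding RNA gene, Gm33599, at 143420619 to 143487158, lay closer: it overlapped the innermost site and began 0.559 kb from the middle one. These sites thus belong to Pcsk2 only by the protein-coding rule.

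Pcsk1, which encodes PC1/3, had 2 sites, neither inside the gene (chromosome 13, 75089420 to 75134861). The upstream site, 75033701 to 75034110, lay 55.3 kb from the gene. It was 410 bp wide and its 9 windows put it in the top 3.70% of regions by number. The authors' deposited table lists 0.42 on the log2 scale for it, a fold of 1.34, at p = 0.0131 (FDR 0.238), with 3 of 9 windows counted as up. This p-value was the smallest of the 10 sites and ranked 372 among the 6758 regions. The downstream site, 75163601 to 75163710 with 3 windows, lay 28.7 kb past the gene's other end, with a log2 fold change of 0.28 and the authors' p = 0.283.

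Pcsk1 stands in a wide gap between genes. Its flanking protein-coding genes, Cast and Ell2, lie 281 and 573 kb away, and the next gene to the upstream site after Pcsk1 is Cast at 225 kb. A non-coding gene, Gm30867, lay 20.9 kb from the upstream site and is nearer than Pcsk1. Over the 2 convertases together, all 6 sites had positive log2 fold changes, from 0.17 to 0.66, and none passed an FDR of 0.05. Since 3 of these sites are the group upstream of Pcsk2, the signs cannot be read as 6 independent observations. Over all regions the share of positive values was 56.8%. Among the 2956 regions outside a gene it was 58.1%, with a median of 0.06. Among 290 regions over 100 kb from their nearest gene, in the distance class of that group, it was 62.1%, with a median of 0.09. The shared sign at the convertases was not tested against these classes.

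Ttr had values closest to 0. Its sites lay on chromosome 18, where the gene spans 20664209 to 20674326. The site inside the gene, 20670901 to 20671060 with 4 windows, was at -0.05 on the log2 scale in the authors' deposited table (p = 0.834). The site 23.3 kb from the gene's lower end, 20640451 to 20640910, had 7 windows over 460 bp and a value of -0.03 (the authors' p = 0.930). It was listed as mixed, the only one of the 10 sites without a single direction. The outer site lay within a non-coding gene, Gm16090, and its next protein-coding gene after Ttr was Dsg2 at 35.9 kb. By windows this outer site was in the top 8.57% of all regions. Absolute values at least as large as that of the inner site were listed for 83.7% of all regions.

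Slc38a5, the amino acid transporter, had 1 site, on the X chromosome from 8262451 to 8262660. It lay 8.72 kb upstream of the gene (8271381 to 8280179), whose start carried no listed region. The assignment is close, since Ftsj1 on the other side is 10.045 kb away. The site had 5 windows over 210 bp and was at 0.29 on the log2 scale in the authors' deposited table (p = 0.0685, FDR 0.514). On the X chromosome 75.0% of the 84 listed regions had positive values, with a median of 0.21, so the value at Slc38a5 lies near that of its chromosome. On chromosomes 2, 13 and 18, which carry the other genes, the median was 0.05 each, near that of the whole table.

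**Figure D3:**
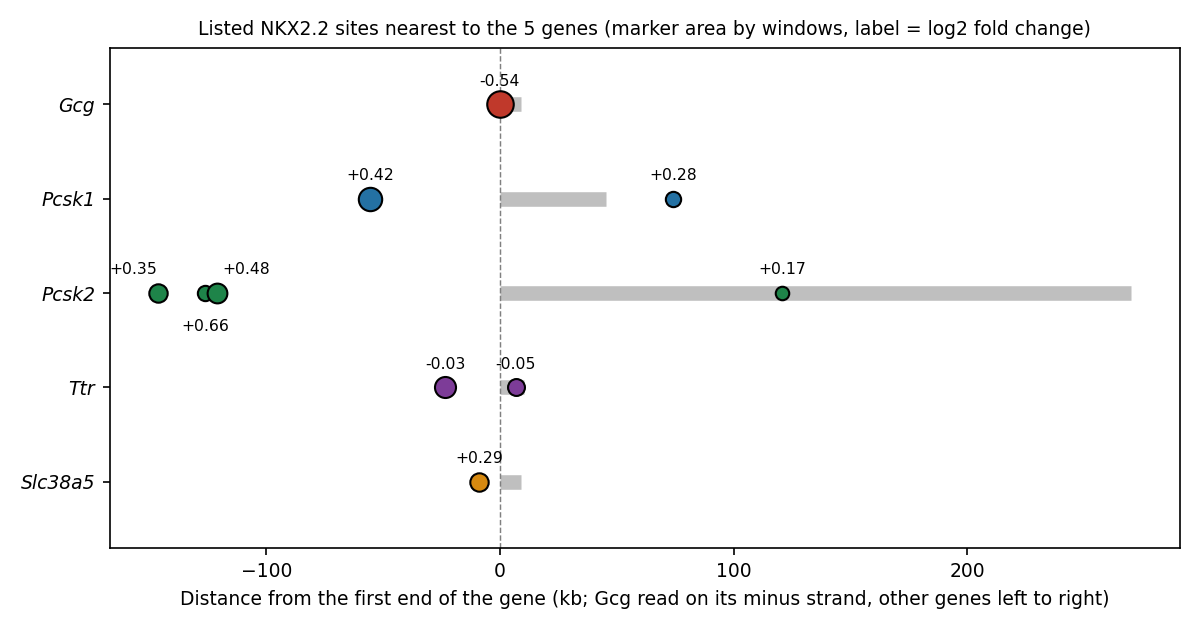
Position of the 10 sites relative to the 5 genes, with grey bars for gene bodies and distance in kb from the first end of each gene on the x axis. Marker area grows with the number of windows and each label is the deposited log2 fold change, which is negative at Gcg and Ttr and positive at Pcsk1, Pcsk2 and Slc38a5.

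Ordered by value, the sites ran from Gcg at -0.54 through both Ttr sites to the Pcsk2 site inside the gene at 0.17, the downstream Pcsk1 site at 0.28, Slc38a5 at 0.29, the outermost Pcsk2 site at 0.35, the upstream Pcsk1 site at 0.42 and the remaining Pcsk2 sites at 0.48 and 0.66. With no error per region in the table, neighbours in this order cannot be told apart. The median of the 10 was 0.29, beside 0.04 over all regions, with 7 positive and 3 negative values. Over the 4 sites inside or within 10 kb of their gene the median was 0.06, so the higher value rests on distant sites. The 10 sites had a median of 5 windows and 210 bp, beside 3 windows and 110 bp over the table. Of the 10, 3 overlapped their gene and 4 lay inside or within 10 kb, whereas 56.1% of the 6726 regions on assembled chromosomes overlapped a protein-coding gene and 74.4% lay within that distance. These contrasts were not tested, and 3 of the distant sites are the group upstream of Pcsk2.

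Genes that work with these 5 were examined as lists. A site was listed for 20.8% of the 21887 protein-coding genes. Of 12 other convertases and their helpers, 4 had a site and 8, among them Furin and the PC2 chaperone gene Scg5, had none. Of their 10 sites in the authors' deposited table, 0 passed an FDR of 0.05 and 2 had an unadjusted p under 0.05, beside 1.36% and 11.2% of all regions. Their median log2 fold change was 0.17. The highest value, 0.90, was at Pcsk1n, which encodes proSAAS, an inhibitor of PC1/3. That site, on the X chromosome from 7919651 to 7919760, lay 0.062 kb from the gene, with the authors' p = 0.00784 and FDR 0.180 and 2 of 3 windows counted as up. Pam, which encodes the enzyme that amidates peptide hormones, had 7 sites, 4 with positive and 3 with negative values, from -0.17 to 0.60. The highest of them overlapped the gene and had the lowest deposited p-value, 0.0276, while the lowest lay 94.4 kb from the gene. Cpe, the carboxypeptidase that trims convertase products, had 1 site, overlapping the gene, at -0.03 in the deposited table. Pcsk6, another convertase, had 1 site, 58.5 kb from the gene, at -0.33 (the authors' p = 0.480).

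Of 11 genes of the glucagon peptide family, its receptors and the proteases Dpp4 and Fap, 1 had a site. The share over all protein-coding genes was 20.8%. The site lay 0.412 kb from Gcgr, the glucagon receptor gene. In the authors' deposited table it had a log2 fold change of -0.36 and a p-value of 0.667. Dpp4 and Fap flank Gcg, at 62.2 and 17.3 kb, and had no listed region of their own. Absence from the table says only that no region there was listed, since the filter behind the list is not recorded.

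The list of 19 other effector genes of alpha cells shares Dpp4 and Fap with the glucagon list and Slc38a4 with the Slc38 carriers below. None of the shared genes had a site. Of the 19, 8 had a site, beside 20.8% of all protein-coding genes. Of their 11 sites in the authors' deposited table, 0 passed an FDR of 0.05, beside 1.36% of all regions. Their median log2 fold change was 0.01, with 6 positive and 5 negative values, and 1 had an unadjusted p under 0.05, beside 11.2% of all regions. That site lay within Slc7a2, which encodes a transporter of cationic amino acids such as arginine. It was at -0.77 on the log2 scale with the authors' p = 0.00423 and FDR 0.135, and 3 of 4 windows were listed as down. Chga, the granule protein chromogranin A, had 2 sites of opposite sign in the authors' deposited table: 1 lay 22.2 kb away with 2 windows at 0.59 (p = 0.0545), and 1 lay 3.48 kb away with 4 windows at -0.43 (p = 0.276). Abcc8, the sulfonylurea receptor subunit of the KATP channel, had 3 sites, of which that with the lowest p-value was at 0.57 (p = 0.135 in the authors' deposited table).

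Among 10 other carriers of the Slc38 family, 1 had a site. It lay 17.8 kb from Slc38a1, another glutamine transporter gene, with a log2 fold change of 0.23 and a p-value of 0.654 in the authors' deposited table. With Slc38a5 itself, 2 of the 11 family members examined had a site, a share near the 20.8% of all protein-coding genes.

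**Figure D4:**
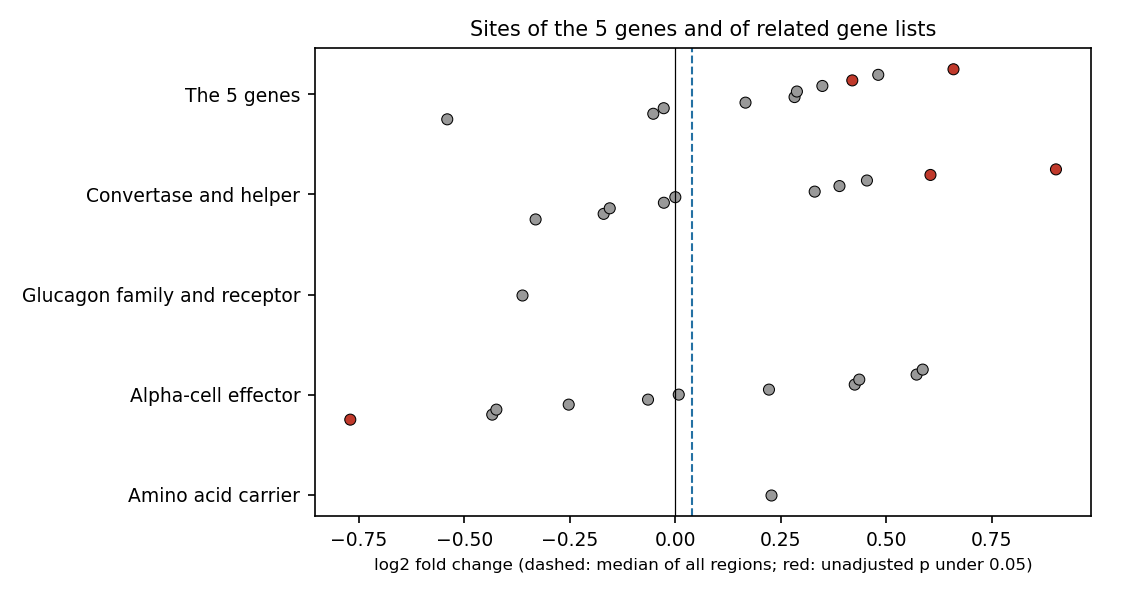
Log2 fold change (x axis) of each site of the 5 genes and of the 4 related lists (rows), each point 1 site, red where the unadjusted p-value is under 0.05, with the median of all regions dashed. The red points lie at Pcsk1 and Pcsk2, at Pcsk1n and Pam, all positive, and at Slc7a2, at -0.77.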

How the data were processed

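A single deposited table was analysed: the authors' csaw comparison of NKX2.2 ChIP-seq, per the series' design text, with no column for any of the 14 samples. The submitters' processing notes name FastQC, Bowtie2, MACS2 and mm10. Each row is a region of neighbouring windows; per the file headers the authors deposited its p-values and FDR values, the log2 fold change of a representative and a best window, and window numbers. The normalization, test covariates, window filter and use of input are not given in the sources used here. Recomputation showed that the FDR columns are Benjamini-Hochberg values over all 6758 regions. The lead window's order within its region was read from its number, which fell inside its region in 6758 of 6758 cases.

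Each region on an assembled chromosome was given the nearest of 21887 protein-coding genes (RefSeq, GRCm38.p6). Transcription starts and promoters came from RefSeq. Motifs were exact letter matches on both strands. All 10 sites and, for each list, at most 4 genes with the lowest p-value are named, except 1 that is not reported here. The 5 genes and the lists were chosen with earlier results of these data known. A count test had been planned but needs counts per library. Gene assignment, adjustment and motif search were first tested on simulated data. Computation used pandas 2.3.3 and numpy 2.4.6 under Python 3.11.15, and figures matplotlib 3.10.9.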

Additional observations from a re-analysis of the deposited data

How the results depend on the processing

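The number of sites, 10, depended on the assignment rule. With the nearest gene of any type it was 5, because non-coding genes lay closer to 5 of the sites, at Pcsk1, Pcsk2 and Ttr. Limited to sites within 10 kb of the gene it was 4. Every site within 100 kb gave 8, merging within 10 kb gave 9, and leaving out single-window regions gave 10. None of the sites passed under FDR thresholds of 0.01 or 0.1, with best-window p-values, with the adjustment over regions up to 1 kb wide on assembled chromosomes or over regions of 2 or more windows, or under the 2 narrower assignments; the smallest FDR ranged from 0.228 to 0.490 over these alternatives. The median log2 fold change, 0.29, was 0.35 with best windows and 0.06 within 10 kb. All 10 sites kept their sign with the best window. Without values per library, there was no run that left out replicates or changed the normalization or filter. No paired analysis was possible because per-sample columns are lacking. Unknown depth limits each statement on a site that did not pass.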

Other observations

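Within 500 kb of the 5 genes the table listed 8 further regions whose nearest gene is another one, with values of either sign. The next region to Gcg lay 138 kb away, nearest to Ifih1, at 0.74 on the log2 scale (the authors' p = 0.121). On the far side of Pcsk2, 87.2 kb past its end, a region nearest to Bfsp1 had 0.62 in the authors' deposited table (p = 0.143). The regions beyond on either side, nearest to Snrpb2 and Snx5, were at -0.16 and -0.26 in the deposited table. Around Pcsk1, a region 472 kb away nearest to Gm46430 was at -0.77 (the authors' p = 0.0263), and 1 nearest to Cast was at 0.26. Around Slc38a5, the regions nearest to Glod5 and Pcsk1n, at 279 and 352 kb, had deposited log2 fold changes of 0.56 and 0.90 with FDR values of 0.150 and 0.180.

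Among islet marker lists, 6 of 7 alpha-cell genes had a listed region (14 regions), 1 of 5 beta-cell genes (1 region, nearest to Mafa) and 1 of 2 delta-cell genes (1 region, nearest to Hhex), beside 20.8% of all protein-coding genes. None of these regions passed an FDR of 0.05 in the authors' deposited table, beside 1.36% of all regions. An unadjusted p under 0.05 was listed for 2 of them, beside 11.2% of all regions. The alpha-cell list holds 3 of the 5 genes described above. Binding near a gene is no measure of its expression, so these counts check no cell type.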
